A study of Mus musculus with 28 samples.

Results

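Cartilage and the subchondral bone under it were compared in knee joints of mice after surgery for destabilization of the medial meniscus (DMM), in which the ligament that anchors the meniscus is cut and osteoarthritis then develops. All arrays labelled DMM entered the comparison, 6 of cartilage and 8 of subchondral bone, which together are 14 of the 28 arrays in the series. The other 14 arrays, laid out in the same way, came from sham-operated joints, in which the ligament was exposed and left intact, and serve here only as a second set in which the same tissues can be compared. Both operations were done on both knees of male mice aged 10 to 12 weeks with the strain label C57BL6 (the treatment text names wild type C57BL6 and Jaffa mice). No genetic change is named for any group; the bone titles carry WT, the cartilage titles no genotype, and no label says which samples, if any, came from Jaffa mice. Each of the 4 DMM groups was 1 tissue at 1 or at 6 weeks after surgery: 3 cartilage arrays and 4 bone arrays at each week. Each cartilage array held RNA pooled from 3 mice and each bone array RNA from 1 mouse, so tissue and pooling cannot be told apart, and 9 mice stood behind the cartilage values of a week against 4 behind the bone values. Both tissues were cut by laser from decalcified frozen sections of the medial tibial plateau, and small RNA was measured on 1-colour Agilent mouse miRNA microarrays. Per the labels both tissues were taken from the same mice, but no label ties a pool to its mice, and arrays of the 2 tissues were treated as independent.

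miRNAs are short RNAs that guide Argonaute proteins to messenger RNAs, chiefly by pairing through the seed, the bases near the 5′ end, and thereby lower the output of those messages. Articular cartilage holds a single cell type, the chondrocyte, in a matrix without blood vessels, and its best known miRNAs are the 2 arms of miR-140. Subchondral bone is a plate and struts of mineralized matrix with osteoblasts, osteocytes and osteoclasts, and its spaces hold marrow and vessels, so that blood-forming, blood and endothelial cells are part of the tissue taken. In whole tissue, fewer cells of a type and less RNA per cell cannot be told apart.

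The mature sequences on which the comparison turns are given here from RefSeq (mouse build GRCm38.p6), 5′ to 3′, with the seed (bases 2 to 8) in capitals. The first set holds miRNAs known for a cell type or for low oxygen, each with a large gap between the tissues.
miR-140-3p: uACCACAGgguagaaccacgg
miR-455-3p: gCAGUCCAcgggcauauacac
miR-210-3p: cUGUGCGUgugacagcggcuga
miR-223-3p: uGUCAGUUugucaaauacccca
miR-142a-3p: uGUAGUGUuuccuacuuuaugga
miR-451a: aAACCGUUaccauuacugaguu
miR-126a-3p: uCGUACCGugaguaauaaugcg
miR-140-3p lies at chr8:107551288-107551308 (+ strand) within the span of Wwp2, and miR-455-3p at chr4:63256904-63256924 (+) within the span of Col27a1, a cartilage collagen gene. miR-210-3p lies at chr7:141221407-141221428 (-), miR-223-3p at chrX:96242884-96242905 (+), miR-142a-3p at chr11:87756903-87756925 (+) and miR-451a at chr11:78073186-78073207 (+). Each lies outside the span of any protein-coding gene in the RefSeq table, and spans of non-coding genes were not compared. miR-126a-3p lies at chr2:26591402-26591423 (+) within Egfl7, an endothelial gene. Exons and introns were not compared for these positions.

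The second set holds families whose members share a seed and were all higher in the same tissue: the miR-99 and miR-29 families in cartilage, and the miR-17 seed of the miR-17-92 cluster and its copies in bone.
miR-99a-5p: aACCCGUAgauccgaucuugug
miR-100-5p: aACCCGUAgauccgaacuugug
miR-29a-3p: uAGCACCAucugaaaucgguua
miR-29c-3p: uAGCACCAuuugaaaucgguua
miR-20a-5p: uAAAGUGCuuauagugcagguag
miR-93-5p: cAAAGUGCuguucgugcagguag
miR-106b-5p: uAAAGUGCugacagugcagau
The third set holds 2 pairs that share a seed, differ by a single base outside it and were higher in opposite tissues.
miR-10a-5p: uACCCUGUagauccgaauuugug
miR-10b-5p: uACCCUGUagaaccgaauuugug
miR-103-3p: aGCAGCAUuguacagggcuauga
miR-107-3p: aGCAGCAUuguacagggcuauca

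The deposited table holds 569 miRNA rows of log2 signal. A value was present on all 28 arrays for 359 rows, which were compared; 79 rows had values only in the cartilage columns, 131 only in the bone columns and 0 had values on only some arrays of a tissue. Arrays of the same tissue resembled each other more than arrays of different tissues, with Pearson correlations across the 359 rows of 0.971 to 0.990 within DMM cartilage, 0.866 to 0.994 within DMM bone and 0.704 to 0.836 between them (rows are not independent, and these are descriptions). The spread between replicates was larger in bone: the median SD within a group was 0.162 on the log2 scale for the pools and 0.274 for the single mice. Replicate 1 of the bone arrays at 1 week and replicates 3 and 4 at 6 weeks stood farthest from the other bone arrays. Values without them are given beside the main counts and some of the miRNAs they touch. A field of the labels names bone as the tissue of the cartilage samples too, and the source field was followed. miR-140-3p set the arrays apart by that field in every case: its log2 signal was 13.12 to 13.51 on the 6 cartilage arrays and 8.94 to 9.92 on the 8 bone arrays.

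Across the 359 miRNAs, 101 were higher in cartilage and 96 higher in bone over both weeks (limma, Benjamini-Hochberg adjusted p under 0.05). These were 28.1% and 26.7% of the miRNAs tested, 54.9% together, and 162 did not pass. Without replicate 1 of the bone arrays at 1 week the calls numbered 102 and 102, and without both replicates 3 and 4 at 6 weeks, a setting chosen after seeing the data, 130 and 103. At least a 2-fold difference was reached by 47 miRNAs in cartilage (13.1%) and 48 in bone (13.4%). In 59 miRNAs every cartilage array lay above every bone array (16.4%), and in 58 every bone array lay above every cartilage array (16.2%). The median difference, cartilage minus bone, was 0.04 on the log2 scale, so the 2 directions were close to balanced in the values as deposited. P-values here measure the spread between pools of cartilage and between mice for bone. No source used here says whether the tissues shared a normalization, and centring each array on its 75th percentile moved the median difference by 0.32, with 190 miRNAs then higher in cartilage and 64 in bone. The balance of the 2 directions therefore depends on the scaling, while 91 of the 101 and 64 of the 96 kept their call under 3 other scalings and in a test of ranks within each array. Among the miRNAs with at least a 2-fold difference, 45 of 47 and 48 of 48 did so.

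**Figure D1:**
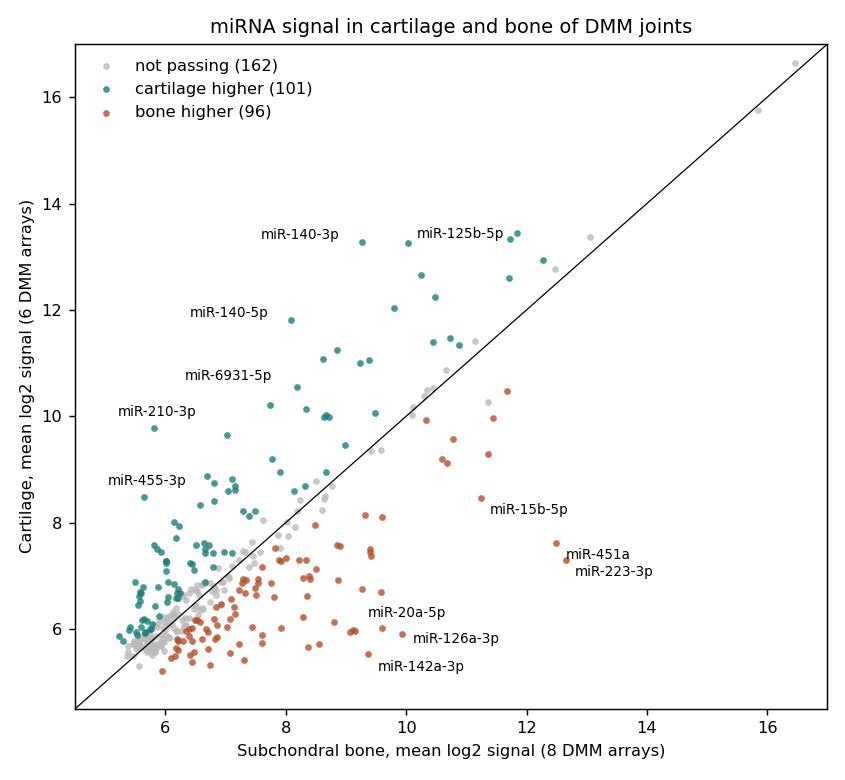
Mean log2 signal of 359 miRNAs on 8 bone arrays (x axis) and 6 cartilage arrays (y axis) of DMM joints; each point is a miRNA, coloured by its call at an adjusted p of 0.05, and the line marks equal signal. The miR-140 arms, miR-210-3p and miR-125b-5p lie far above the line, and miR-223-3p, miR-451a, miR-126a-3p and miR-142a-3p far below it.

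The chondrocyte miRNAs gave 3 of the 5 largest differences on the cartilage side. miR-140, which is needed for normal growth plate and joint cartilage in mice, was higher in cartilage in both arms. miR-140-3p had a median log2 signal of 13.28 in cartilage and 9.28 in bone, a difference of 4.00 (SE 0.13; 16-fold; adjusted p = 2.55e-12). miR-140-5p ran from 11.61 to 12.18 with a median of 11.74 in cartilage and from 7.84 to 8.99 with a median of 7.93 in bone, a difference of 3.72 (SE 0.16; adjusted p = 3.43e-11). No array of one tissue overlapped the other for either arm. miR-455-3p, the third measured member of the list, which chondrocytes make from within Col27a1, ran from 8.18 to 9.07 in cartilage (median 8.45) and from 5.11 to 6.36 in bone (median 5.66). It was 2.84 higher in cartilage (SE 0.16; adjusted p = 5.80e-10), without overlap. All 3 listed miRNAs tested were thus higher in cartilage, with a median of 3.72 against 0.04 over all rows. The share of all rows higher in cartilage was 28.1%. miR-455-5p had values in the cartilage columns only, 6.54 to 7.04, and was not compared. The linear signals of the 3 miRNAs summed to 12345 to 16584 on cartilage arrays and 799 to 1560 on bone arrays, and whether cartilage was present in the bone sections was not tested.

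miR-210-3p, which the hypoxia-inducible factor HIF-1 switches on in many cell types, was the only member of the hypoxia list measured in both tissues. It ran from 9.56 to 9.89 in cartilage (median 9.83) and from 5.26 to 6.88 in bone (median 5.72). The 6.88 came from replicate 1 at 1 week, and the next highest bone array of that week was at 5.80. The difference of 3.96 (SE 0.19; adjusted p = 6.52e-11) was 4.10 without that array.

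Apart from miR-6931-5p, described last, the other miRNAs with the largest cartilage excess belonged to 3 families. miR-125b-5p, a lin-4 family miRNA found in many mesenchymal tissues, ran from 13.06 to 13.46 in cartilage (median 13.24) and from 9.40 to 10.82 in bone (median 10.02), a difference of 3.23 (SE 0.16; adjusted p = 1.03e-10). miR-100-5p ran from 9.46 to 9.91 (median 9.67) in cartilage and from 6.62 to 8.04 (median 6.88) in bone, and differed by 2.63. miR-99a-5p ran from 10.93 to 11.17 (median 11.08) and from 8.29 to 9.77 (median 8.44), and differed by 2.45. In each of these 3 the tissues did not overlap, and the highest bone array was again replicate 1 at 1 week. Without it the differences were 3.33 for miR-125b-5p, 2.76 for miR-100-5p and 2.59 for miR-99a-5p. Of 7 miRNAs tested from the miR-99, miR-100 and miR-125 families, 5 were higher in cartilage, all of them 5p arms, and 1 was higher in bone (median 1.70). Over all rows these shares were 28.1% and 26.7%. The exception was miR-125a-3p, at -0.32 (SE 0.10; adjusted p = 0.0129), which came to 0.00067 when arrays were centred on the 75th percentile. miR-99a-5p and miR-100-5p share every base but 1 (U16A, counted from the 5′ end of miR-99a-5p), and signal on one probe from the other miRNA was not tested.

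The clusters of miR-23, miR-27 and miR-24, which are transcribed from 2 loci and are known from work on vessels and cartilage, were higher in cartilage in all 5 miRNAs tested (median 2.23). Over all rows the share higher in cartilage was 28.1%. miR-23b-3p ran from 10.94 to 11.69 in cartilage (median 11.16) and from 8.64 to 9.35 in bone (median 8.78), a difference of 2.41 (SE 0.11; adjusted p = 6.52e-11). miR-23a-3p differed by 2.40 and miR-24-3p by 2.23, and the smallest difference was 1.27 for miR-27a-3p (SE 0.15; adjusted p = 2.66e-06). All 5 showed no overlap between tissues, which held for 16.4% of all rows with cartilage higher. At chr8:84208563-84208896 the miR-23a cluster had 3 of 3 tested members higher in cartilage. Of these, miR-24-3p is also encoded at chr13:63301251-63301272, and its signal cannot be assigned to either locus.

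The miR-29 family is known to target collagen messages. All 3 of its 3p arms were higher in cartilage (median 2.19), against 28.1% of all rows. miR-29c-3p ran from 9.92 to 10.51 in cartilage (median 10.25) and from 7.43 to 8.23 in bone (median 7.69), a difference of 2.47 (SE 0.12; adjusted p = 9.90e-11). miR-29b-3p differed by 2.19 and miR-29a-3p by 1.77, again without overlap. miR-29b-1-5p and miR-29c-5p had values in the cartilage columns only, with means of 5.71 each. miR-193b-3p and miR-365-3p, neighbours on chromosome 16 and known in chondrocyte differentiation, were 1.77 and 1.54 higher in cartilage (adjusted p = 9.38e-08 and 6.34e-08), and miR-193b-3p in bone was highest, at 6.80, in replicate 1 at 1 week, without which the difference was 1.88. miR-26a-5p, miR-26b-5p and miR-101a-3p were also all called higher in cartilage, by 0.29 to 1.17, and the smallest of these, miR-26b-5p, lost its call in several alternatives, with 0.17 after both outlying bone arrays at 6 weeks were left out.

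**Figure D2:**
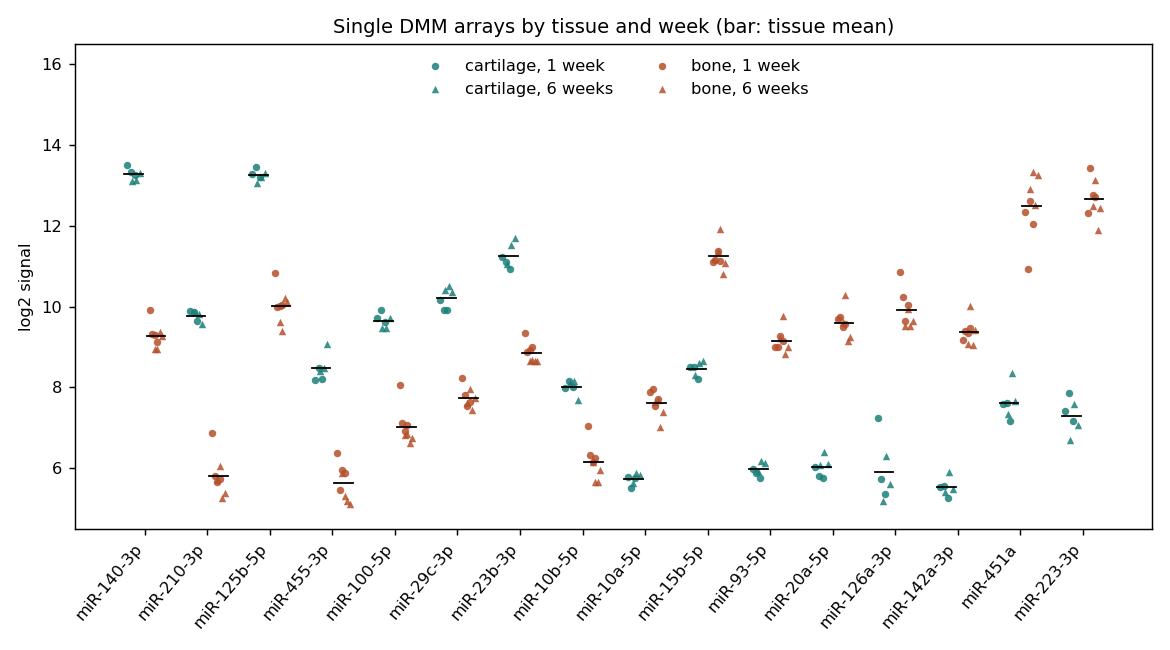
Log2 signal (y axis) of 16 miRNAs on each of 6 cartilage and 8 bone arrays of DMM joints; circles are 1 week, triangles 6 weeks, and bars the mean of a tissue. The tissues do not overlap for any of the 16, and the highest bone circle of miR-140-3p, miR-210-3p, miR-125b-5p and miR-100-5p stands above the other bone arrays.

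On the bone side the leading miRNAs were those of blood-forming cells, red cells and vessels. miR-223-3p, which is made in neutrophils, monocytes and osteoclast precursors, ran from 11.91 to 13.42 in bone (median 12.61) and from 6.69 to 7.85 in cartilage (median 7.28). Its difference, cartilage minus bone, was -5.36 (SE 0.21; 41.0-fold higher in bone; adjusted p = 1.83e-11), the largest of the 359. miR-142a-3p, found throughout the blood lineages, ran from 9.05 to 10.02 in bone (median 9.37) and from 5.27 to 5.90 in cartilage (median 5.51), a difference of -3.85 (SE 0.15; adjusted p = 1.83e-11). miR-342-3p, from within Evl and known in lymphoid and myeloid cells, differed by -1.95 (SE 0.13; adjusted p = 3.78e-09). In these 3 no array of one tissue overlapped the other. Of 5 leukocyte miRNAs tested, 3 were higher in bone and 0 in cartilage (median -1.95), against 26.7% and 28.1% of all rows. The other two, both known as activation-induced, did not pass: miR-155-5p was 5.71 in cartilage and 5.86 in bone on average (difference -0.15, SE 0.10, adjusted p = 0.213), and miR-146a-5p was 6.38 and 6.47 (difference -0.09, SE 0.17, adjusted p = 0.660).

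Red cell miRNAs followed. miR-451a, which is processed by Argonaute 2 without Dicer and accumulates in erythroid cells, ran from 10.93 to 13.34 in bone (median 12.56) and from 7.17 to 8.35 in cartilage (median 7.60), a difference of -4.87 (SE 0.24; 29.3-fold; adjusted p = 1.15e-10). The bone arrays spread widely (SD 0.768), and the tissues still did not overlap. miR-486a-5p, the second erythroid miRNA tested, ran from 7.10 to 9.25 in bone (median 8.39) and from 5.42 to 5.89 in cartilage (median 5.65), a difference of -2.72 (SE 0.22; adjusted p = 2.42e-08). miR-126a-3p, the endothelial miRNA of Egfl7, ran from 9.52 to 10.86 in bone (median 9.79) and from 5.20 to 7.24 in cartilage (median 5.66), a difference of -4.02 (SE 0.27; adjusted p = 3.78e-09). The cartilage pools differed among themselves more for miR-126a-3p (SD 0.757) than for the typical row. Companion arms and relatives of these miRNAs, namely miR-142a-5p, miR-150-5p, miR-342-5p, miR-144-5p, miR-144-3p, miR-486a-3p and miR-126a-5p, had values in the bone columns only, with means of 5.52 to 6.96, and were not compared.

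The summed linear signal of the 5 leukocyte miRNAs was 392 to 555 on cartilage arrays and 4894 to 12063 on bone arrays, that of the 2 erythroid miRNAs 191 to 374 and 2095 to 10947, and that of the endothelial miRNA 36.7 to 151 and 733 to 1852. Every miRNA tested had a value on all arrays by selection, so these values cannot show whether a marker was absent from a tissue. Scanner background values did not enter this comparison. Some of the low values on either side lay near the low end of an array. Of 96 miRNAs called higher in bone, 25 had a cartilage mean under 5.89, the lower quartile of that tissue. Of 101 called higher in cartilage, 30 had a bone mean under 5.94, the lower quartile in bone. Those shares are near the share of all rows that a lower quartile holds by definition. A log2 difference against such a low value, as for miR-142a-3p and miR-210-3p, may understate the gap, so no fold is given for these. For miR-126a-3p, with cartilage arrays from 5.20 to 7.24, no fold is given either. Of the muscle list, only miR-206-3p was measured in both tissues. miR-206-3p, a skeletal muscle miRNA, ran from 5.66 to 6.14 in cartilage and from 5.80 to 7.14 in bone, overlapped between tissues, and differed by -0.52 (SE 0.15; adjusted p = 0.00752), which did not pass at -0.20 after centring on the 75th percentile. miR-1a-3p, miR-133a-3p and miR-133b-3p had values in the cartilage columns only, from 4.92 to 7.87, and were not compared.

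Calls on the bone side also took in whole families. All 8 tested members of the miR-17-92 cluster and its copies, which are known for driving proliferation of blood and lymphoid progenitors, were higher in bone (median -2.60). Over all rows the share higher in bone was 26.7%. miR-20a-5p ran from 9.14 to 10.29 in bone (median 9.59) and from 5.74 to 6.40 in cartilage (median 6.04), a difference of -3.58 (SE 0.15; adjusted p = 3.05e-11). miR-93-5p, encoded within the span of Mcm7, a replication gene, ran from 8.81 to 9.76 (median 9.08) and from 5.76 to 6.17 (median 5.95), a difference of -3.18 (SE 0.13; adjusted p = 1.99e-11). miR-20b-5p differed by -2.85, miR-106b-5p by -2.67, and the smallest difference was -1.51 for miR-92a-3p (SE 0.12; adjusted p = 3.13e-08). None of these overlapped between tissues, which held for 16.2% of all rows with bone higher. By position, the bone bias covered 4 of 4 tested miRNAs at chr14:115044048-115044496, 3 of 3 at chrX:52741854-52742181 and 3 of 3 at chr5:138165332-138165807; miR-19b-3p and miR-92a-3p are encoded at 2 of these loci and count at both. These miRNAs moved with the leukocyte and erythroid markers above, whose part in them was not tested.

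Of 6 miRNAs with the seed of miR-15 and miR-16, a family known to restrain the cell cycle, 4 were higher in bone and 2 did not pass (median -0.87). Among all rows 26.7% were higher in bone. miR-15b-5p ran from 10.80 to 11.92 in bone (median 11.14) and from 8.21 to 8.66 in cartilage (median 8.50), a difference of -2.78 (SE 0.15; adjusted p = 2.71e-10). miR-15a-5p, from another locus of the family than miR-15b-5p, differed by -0.07 and did not pass. miR-322-5p, also a member of the bone list, differed by -1.52 (SE 0.19; adjusted p = 5.43e-06), with arrays from 5.45 to 5.82 in cartilage and 6.30 to 7.97 in bone. It was the only 1 of 2 tested members of that list to pass: miR-208a-5p differed by 0.06 (SE 0.10; adjusted p = 0.597) with overlapping arrays, or by 0.38 with arrays centred on the 75th percentile, where it passed. Of the list's other members, miR-335-5p and miR-204-5p had values in the cartilage columns only, and miR-218-5p and miR-503-5p in the bone columns only. The miR-181 family, known from lymphocyte development, had 4 of 5 members higher in bone (median -0.66), led by miR-181b-5p at -1.38.

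3 further bone-biased miRNAs with large differences have no cell type attached to them in the lists. miR-1949 ran from 9.19 to 10.02 in bone (median 9.61) and from 6.57 to 7.01 in cartilage (median 6.63), a difference of -2.89 (SE 0.12; adjusted p = 2.47e-11). miR-7015-5p and miR-3474 differed by -3.13 and -3.12 (SE 0.30 each; adjusted p = 2.48e-07 and 2.17e-07), with wide bone ranges of 7.79 to 10.15 and 7.72 to 10.06 and no overlap with cartilage. Without the outlying bone arrays at 6 weeks both came to -2.80.

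**Figure D3:**
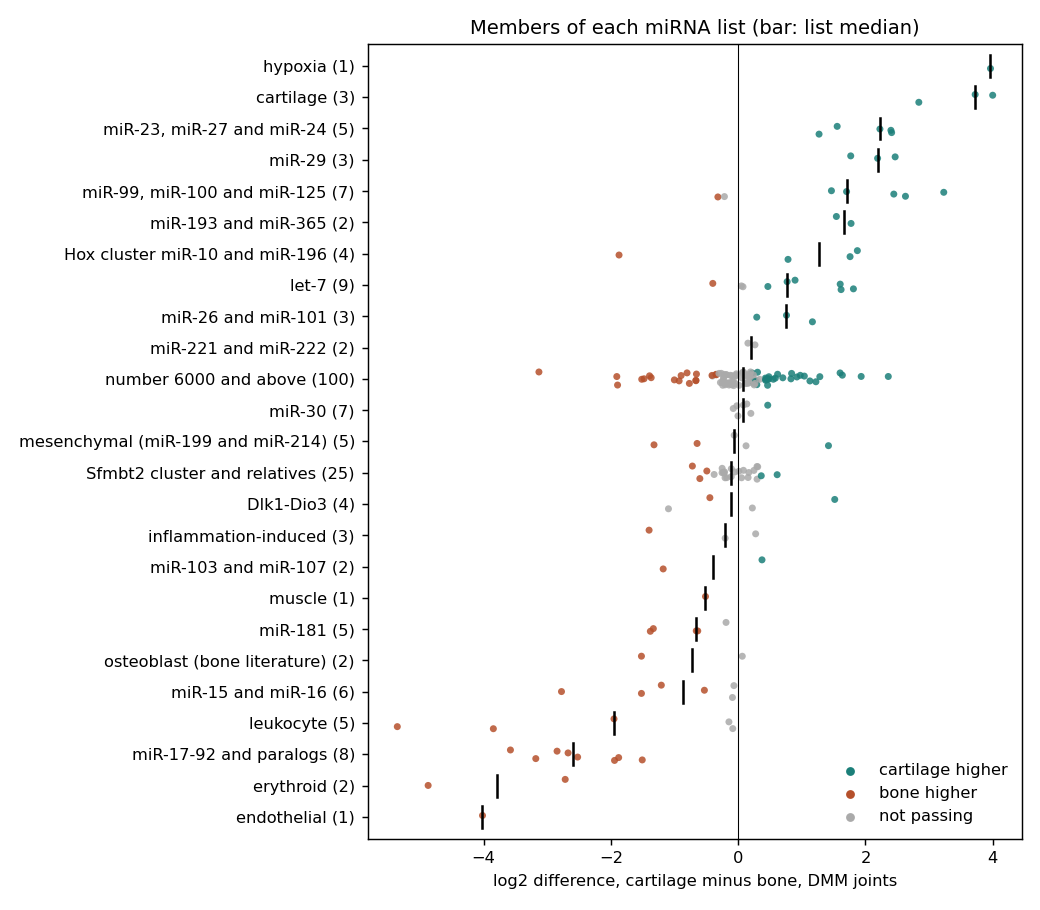
Log2 difference, cartilage minus bone, over both weeks (x axis) for the tested members of 25 miRNA lists (rows, number tested in brackets); points are miRNAs coloured by call, vertical bars list medians. The miR-29, cartilage and joint miR-23, miR-27 and miR-24 lists lie wholly to the right of 0 and the miR-17-92, erythroid and endothelial lists wholly to the left, while the let-7, mesenchymal, Hox cluster and miR-103 and miR-107 lists have calls on both sides.

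Several families were split between the tissues. miR-10a-5p and miR-10b-5p sit in the Hox B and Hox D gene clusters and differ by 1 base in 23 (U12A, miR-10a-5p first, counted from the 5′ end). miR-10a-5p ran from 5.52 to 5.87 in cartilage (median 5.76) and from 7.01 to 7.95 in bone (median 7.67), a difference of -1.87 (SE 0.12; adjusted p = 1.96e-09). miR-10b-5p ran the other way, from 7.69 to 8.16 in cartilage (median 8.06) and from 5.65 to 7.04 in bone (median 6.15), a difference of 1.87 (SE 0.15; adjusted p = 1.97e-08). Neither overlapped between tissues, and both kept their direction and call in sham joints (-1.70 and 2.10). The other Hox cluster miRNAs, miR-196a-5p and miR-196b-5p, were higher in cartilage by 1.76 and 0.78. miR-103-3p and miR-107-3p, which lie within the Pank genes of coenzyme A synthesis and differ by G22C, also split: miR-103-3p differed by -1.18 (SE 0.11; adjusted p = 1.45e-07) without overlap, and miR-107-3p by 0.37 (SE 0.12; adjusted p = 0.0127) with overlapping arrays. How far such near-identical miRNAs share signal on the array was not tested.

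In the mesenchymal list (miR-199 and miR-214), 1 of 5 was higher in cartilage and 2 in bone (median -0.06). With 28.1% and 26.7% of all rows called, counts this small do not set the list apart. miR-199b-5p ran from 8.79 to 9.56 in cartilage (median 9.11) and from 7.17 to 9.22 in bone (median 7.53), a difference of 1.42 (SE 0.23; adjusted p = 6.66e-05), and miR-199a-5p from 6.44 to 7.56 (median 6.94) and from 7.65 to 9.52 (median 8.05), a difference of -1.32 (SE 0.22; adjusted p = 7.76e-05). The tissues overlapped for miR-199b-5p through the bone array at 9.22, replicate 1 at 1 week, without which the difference was 1.59, and did not overlap for miR-199a-5p. The other bone-side call, miR-214-3p at -0.65 (adjusted p = 0.0158), was lost under quantile normalization (-0.34), when centred on the 75th percentile (-0.33) and without cartilage pool 1 at 6 weeks (-0.52).

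The let-7 family, known for rising as cells leave the proliferating state, had 6 of 9 members higher in cartilage and 1 in bone (median 0.77). Among all rows 28.1% were higher in cartilage and 26.7% in bone. let-7e-5p ran from 9.63 to 10.44 in cartilage (median 10.19) and from 7.97 to 9.38 in bone (median 8.15), a difference of 1.81 (SE 0.16; adjusted p = 7.25e-08). let-7i-5p, the member on the other side, differed by -0.40 (SE 0.16; adjusted p = 0.0412) and lost its call when any of 8 arrays was left out singly. By rank 2 members were higher in cartilage and 1 in bone. Ranks say little for the members with high signal, which had no room to move: let-7c-5p was 1.60 higher in cartilage in level and stood at percentile 99.0 there and 97.7 in bone (adjusted p for rank = 0.144). let-7f-5p, at 0.47, turned to -0.04 under quantile normalization. Of 25 tested miRNAs from the Sfmbt2 cluster and its relatives, expressed from repeats in many mouse cells, 2 were higher in cartilage and 3 in bone (median -0.11). Both counts were below the shares over all rows. In sham joints 8 of the 25 were higher in cartilage and 16 in bone, against 26.5% and 35.9% of all rows there. Of 7 miR-30 family members 1 was higher in cartilage, and neither miR-221-3p nor miR-222-3p passed in the values as deposited. By rank 1 of these 2 was higher in cartilage. miR-221-3p also passed at 0.38 under quantile normalization, 0.34 when centred on the median and 0.58 when centred on the 75th percentile. miR-222-3p passed under the last of these, at 0.47. miR-21a-5p, induced in many injured tissues, ran from 8.37 to 10.37 in cartilage (median 9.05) and from 10.14 to 11.34 in bone (median 10.55), a difference of -1.40 (SE 0.23; adjusted p = 7.06e-05), and its 2 tissues overlapped through a cartilage pool at 1 week.

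The Dlk1-Dio3 cluster, a large imprinted set of miRNAs active in mesenchymal tissues, was mostly outside the comparison. Of 29 rows of this cluster in the table, 24 had values in the cartilage columns only, 1 in the bone columns only and 4 in both. Among the 4, miR-487b-3p was 1.52 higher in cartilage, miR-134-5p was -0.45 (higher in bone), and miR-370-3p and miR-494-3p did not pass. Under quantile normalization miR-494-3p passed, at -1.43 (limma adjusted p = 0.0405). It also passed without bone replicate 1 at 6 weeks (-1.39) or without cartilage pool 1 at 6 weeks (-1.40). Its highest bone arrays were replicates 3 and 4 at 6 weeks, at 13.09 and 12.80. With both left out it came to -0.45 and did not pass. One of the 24, miR-127-3p, ran from 8.03 to 9.06 in cartilage. No source used here says what a missing value in the other tissue stands for, and no difference is drawn from it. In the late-numbered miRNAs (number 6000 and above), many of which rest on thin evidence as true miRNAs, 28 of 100 were higher in cartilage and 18 in bone (median 0.08), against 28.1% and 26.7% of all rows, with 22 and 45 more rows in the columns of 1 tissue.

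By seed, 297 of the 359 miRNAs matched a RefSeq mature sequence and 25 seeds were shared by at least 2 of them. In 12 of the 25, at least 2 members were called and all calls had the same direction, and in 5 there were calls in both directions: the let-7 seed, the miR-10 pair, miR-103-3p with miR-107-3p, miR-3473e with miR-3473b, and miR-3547-5p with miR-6368. miR-3473b turned sign under quantile normalization, to -0.17. The seed counts were not tested against the shares over all rows, 28.1% higher in cartilage and 26.7% in bone. Median GC content of the mature sequences was 54.5% for miRNAs higher in cartilage, 52.2% for those higher in bone and 57.1% for those that did not pass.

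A test of ranks asked whether a miRNA also moved relative to the others on its own array, a measure that no rescaling of an array can shift. Each value was turned into a percentile among the 359 rows of its array. By rank 109 miRNAs were higher in cartilage (30.4%) and 97 in bone (27.0%). Of these, 91 and 86 were also called by level in the same direction, and 0 were called in opposite directions. miR-142a-3p moved farthest down in cartilage, from percentile 87.5 in bone to 6.80 (difference -80.7; adjusted p = 1.52e-09). miR-210-3p and miR-455-3p moved from percentiles 20.4 and 15.7 in bone to 89.1 and 82.4 in cartilage, differences of 68.6 and 66.7 (adjusted p = 3.32e-06 and 5.47e-07). miR-140-3p, with the largest level difference on this side, moved by 11.8 points, from 86.9 to 98.7. miR-451a stood at percentile 73.6 in cartilage and 98.5 in bone.

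**Figure D4:**
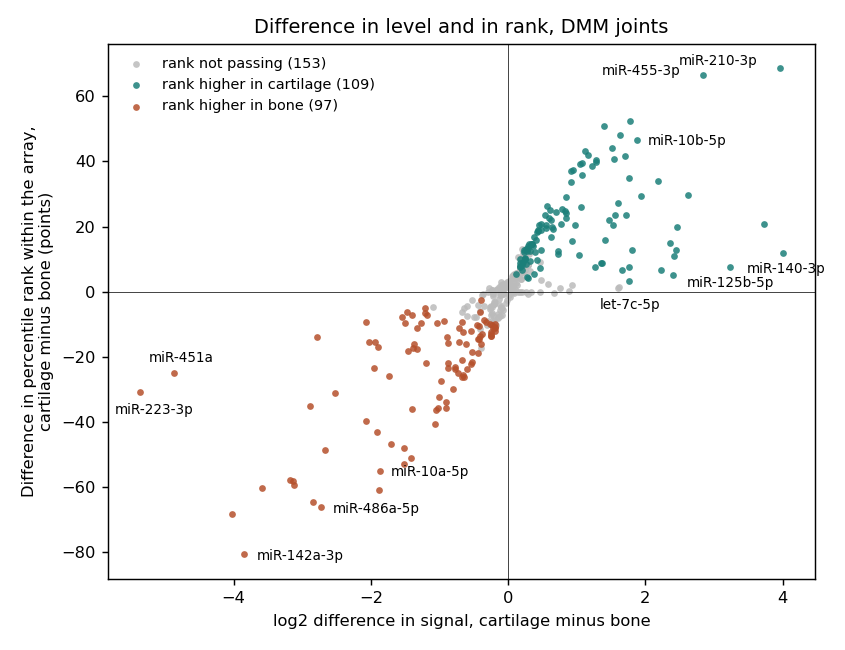
Difference in log2 signal (x axis) against difference in percentile rank within the array (y axis), cartilage minus bone, for 359 miRNAs in DMM joints, coloured by the call on rank. miR-210-3p and miR-455-3p combine large differences in level and rank, miR-140-3p and miR-125b-5p a large difference in level with a small one in rank, and let-7c-5p a difference in level without a call in rank.

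The tissue difference was next read within each week. At 1 week 111 miRNAs were higher in cartilage (30.9%) and 84 in bone (23.4%), and at 6 weeks 80 (22.3%) and 93 (25.9%). With arrays centred on the 75th percentile these were 163 and 58 at 1 week and 157 and 60 at 6 weeks. The larger side at 6 weeks also turned under quantile normalization, with 91 and 82, and when centred on the median, with 98 and 80. It turned as well without bone replicate 4 of that week, with 78 and 76, without cartilage replicate 3 of that week, with 76 and 72, and without both bone replicates 3 and 4, with 82 and 73. In cartilage 69 were called at both weeks, which is 62.2% of the 1-week calls and 86.2% of the 6-week calls. In bone 59 were, or 70.2% and 63.4%. The only miRNA called in opposite directions was miR-1187, named here for that after its values were seen, at 0.89 at 1 week and -0.73 at 6 weeks. Leaving out single arrays moved these totals between 162 and 209 at 1 week and between 148 and 188 at 6 weeks. The difference between the weeks was tested directly by an interaction contrast in limma, which called 0 of 359 miRNAs (0%), with 96 at an unadjusted p under 0.05. The 3 smallest p-values belonged to miR-5099, miR-6931-5p and miR-3082-5p. miR-5099 lay at 6.35 to 6.54 in cartilage and 6.10 to 6.23 in bone at 1 week, and at 7.13 to 7.44 and 5.62 to 6.39 at 6 weeks, so its gap was 1.10 wider at 6 weeks (adjusted p = 0.0509). miR-6931-5p had a gap narrower by 1.20 (difference -1.20, adjusted p = 0.0509) and miR-3082-5p a difference of -1.62 (adjusted p = 0.0640). The count of 0 depends on single bone arrays: it was 51 without replicate 1 at 6 weeks, and 7 without replicate 2 at 6 weeks or without replicate 3 at 1 week.

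Sham joints gave the same tissue comparison in other mice, with 95 miRNAs higher in cartilage (26.5%) and 129 in bone (35.9%), or 152 and 72 with arrays centred on the 75th percentile and 118 and 101 with arrays centred on the median. In cartilage 78 were called in both operations, 77.2% of the DMM calls and 82.1% of the sham calls. In bone 86 were, 89.6% and 66.7%. The differences of all rows had a Pearson correlation of 0.945 between DMM and sham, given as a description across miRNAs. miR-140-3p differed by 4.13 in sham joints against 4.00 in DMM joints, miR-210-3p by 4.36 against 3.96, miR-223-3p by -5.05 against -5.36, and miR-451a by -4.37 against -4.87. The only 2 called in opposite directions, named for that after their values were seen, were miR-6904-5p (0.48 in DMM and -0.49 in sham) and miR-7682-3p (0.43 and -0.50).

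The difference of the tissue difference, DMM minus sham, was fitted to all 28 arrays and called 8 miRNAs (2.23%), all with a higher value of cartilage minus bone in DMM joints; 82 had an unadjusted p under 0.05. miR-6931-5p was the only one of these with a positive difference in both operations. The other 7 had a positive difference in DMM joints, 0.26 to 0.84, and a negative one in sham joints, -0.54 to -0.25. Among these 7 only miR-6904-5p passed in both operations. miR-6931-5p was the clearest. Its cartilage arrays in DMM joints lay at 10.92, 11.45 and 11.03 at 1 week and at 10.20, 10.03 and 9.61 at 6 weeks, and its bone arrays from 7.93 to 8.40. In sham joints cartilage averaged 8.37 and bone 8.06. The tissue difference was 2.36 in DMM joints (SE 0.13; adjusted p = 2.83e-10) and 0.30 in sham joints (adjusted p = 0.103), and the 2 differed by 2.06 (SE 0.20; adjusted p = 9.18e-08). miR-5099 differed by 1.13 in the same test, from 0.84 in DMM and -0.29 in sham joints. Both were called in every alternative that included them. The next by p, miR-195a-3p (0.72), miR-6918-5p (1.28) and miR-466f-5p (0.84), had an adjusted p of 0.0475 each and were called in 14 of 34, 14 of 35 and 14 of 34 alternatives. For miR-6918-5p the bone arrays at 6 weeks were at 6.34, 6.96, 7.72 and 7.77, the last 2 being replicates 3 and 4. The count itself was unsteady: leaving out both of those replicates raised it to 70, and leaving out single arrays gave 2 to 57.

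**Figure D5:**
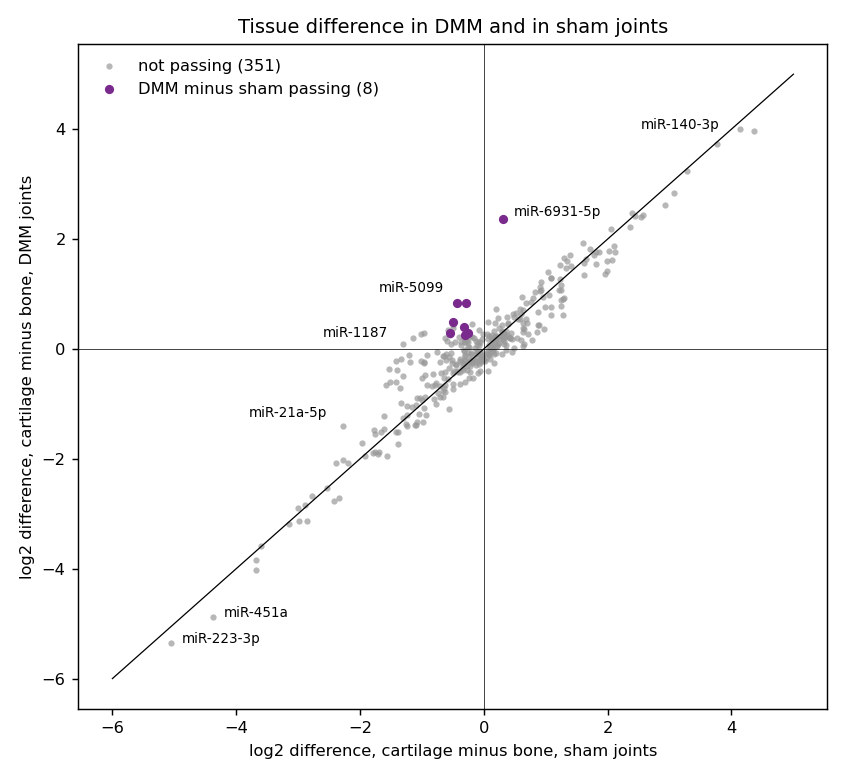
Log2 difference, cartilage minus bone, in sham joints (x axis) and DMM joints (y axis) for 359 miRNAs; the line marks equal differences and large points the 8 miRNAs past the test of DMM minus sham. Most miRNAs lie along the line, and miR-6931-5p stands apart at 0.30 in sham and 2.36 in DMM joints.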

How the data were processed

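Total RNA of 28 samples was labelled with Cyanine 3 and hybridised to Agilent mouse miRNA arrays, release 21, 70 ng each, per the labels' protocols. The deposited values, 4.08 to 16.7, were read as log2 signals because of that range and were not rescaled; limma 3.20.9 is named in the submitters' processing notes, while background correction, normalization and the row filter have no stated method in the sources at hand. The table had 0 unused columns and 0 pairs of identical arrays. Depth has no meaning for arrays; the number of arrays limits the precision.

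Groups followed titles (operation, week) and the source field (tissue). Differences came from limma 3.58.1 (R 4.3.3), with a group-means model over the 14 DMM arrays (4 groups), weeks weighted equally, empirical Bayes moderation, and Benjamini-Hochberg adjustment over 359 rows (threshold 0.05, two-sided). The 14 sham arrays were fitted apart, and all 28 together for DMM minus sham. Ranks within an array went through the same fit. The code was tested on simulated data. The text names the 12 largest differences each way among miRNAs called in level and rank, cell type lists, the extremes of other lists, and interaction results, at most 5 each way by p. Members and lists were chosen with earlier results of these data known. The settings varied were the scaling (quantile normalization, or arrays centred on the median or 75th percentile), a trend and robust prior, array weights per tissue, leaving out low rows, all 28 arrays in the fit, a replicate block, and leaving out arrays.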

Additional observations from a re-analysis of the deposited data

Results flagged for a closer look

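In 7 of 134 combinations of a named miRNA and a bone DMM group of 4 arrays, a single array lay apart from the rest, with a gap to its nearest neighbour above 0.829 of the group's range; chance alone gives about 1 in 20. In 4 of them the array was the highest at 1 week and was replicate 1: the gap was 0.885 of the range for miR-210-3p, 0.961 for miR-125b-5p, 0.936 for miR-30e-3p and 0.944 for miR-193b-3p. miR-30e-3p did not differ between the tissues at the threshold, and the other three were higher in cartilage. At 6 weeks replicate 2 was the highest for miR-24-3p (0.909) and miR-27a-3p (0.853), and at 1 week replicate 2 was the lowest for miR-155-5p (0.864). Groups of 3 cartilage pools were not tested.

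Cartilage minus bone differed between DMM and sham joints, by a test of the difference itself (limma), for 8 miRNAs. The sign of the estimate turned in all of them but miR-6931-5p. Only miR-6904-5p among them was called in opposite directions in DMM and in sham joints. The DMM difference minus the sham difference, on the log2 scale, was 2.06 for miR-6931-5p and 1.13 for miR-5099, then 0.72 for miR-195a-3p, 1.28 for miR-6918-5p, 0.84 for miR-466f-5p, 0.97 for miR-6904-5p, 0.54 for miR-7030-5p and 0.57 for miR-16-1-3p. The first 2 had adjusted p-values of 3.44e-08 to 1.64e-06 and 1.18e-05 to 0.000524 over the alternatives. The other 6 were called in 13 or 14 of 34 or 35 alternatives, with adjusted p up to 0.128.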

How the results depend on the processing

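Calls between the tissues held their counts within 1.5 times of the reported ones in all alternatives but one: when rows with a mean under the median level were dropped, 180 were tested, and calls numbered 124 for both weeks, 112 at 1 week, 125 by rank and 135 in sham joints, fewer being tested by construction. The split by direction moved with scaling. Centring on the 75th percentile gave 190 miRNAs higher in cartilage and 64 in bone for both weeks, 163 and 58 at 1 week, 157 and 60 at 6 weeks, and 152 and 72 in sham joints. Centring on the median gave 134 and 89 for both weeks and 118 and 101 in sham joints. miR-125a-3p turned to 0.00067 when centred on the 75th percentile. Among 67 named miRNAs 14 changed their call in some alternative.

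The interaction counts were the least steady. For 6 weeks minus 1 week, called miRNAs numbered 1 under quantile normalization, 1 with either centring, 8 with array weights, 2 with all 28 arrays in the fit, 2 without bone arrays 3 and 4 at 6 weeks (an alternative chosen after seeing the data), and 0 to 51 without single arrays. For DMM minus sham they numbered 37 under quantile normalization (28 positive and 9 negative), 25 when centred on the 75th percentile, 18 with a trend and robust prior, 34 with array weights, 1 without the low rows, 70 without bone arrays 3 and 4 (62 and 8), and 2 to 57 without single arrays, the 57 being 45 and 12 without sham cartilage pool 1 at 6 weeks; the causes were not tested. With the cartilage pool number as a replicate block, DMM minus sham called 2 miRNAs and the tissue comparison 185, with 93 higher in cartilage and 92 in bone. The numbers did not pair the pools: deviations of same-numbered pools correlated at -0.12, -0.17 and 0.11 across the weeks.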
